A study of Mus musculus with 19 samples.

Results

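The AP-2εCre Smad4 conditional knockout (cKO) was compared with its own controls by mRNA-seq of the whole mouse vomeronasal organ (VNO) at postnatal day 21. The comparison held 9 of the 19 libraries in the series, chosen by their labels. The 3 cKO libraries were AP-2εCre+/-/Smad4 flox/flox. The controls were 3 Smad4 flox/flox libraries without Cre, which the labels call wild type, and 3 AP-2εCre+/- libraries for which the labels name no floxed Smad4. A further AP-2εCre library was left out because its title names a heterozygote and its genotype label names a knockout. All animals were labelled female. The Cre was knocked into Tfap2e, the gene of the transcription factor AP-2ε, so the AP-2εCre+/- controls and the cKO animals share the loss of 1 Tfap2e copy, and the Smad4 flox/flox controls do not. Recombination was directed to immature basal neurons, whereas the RNA came from the dissected organ with all its cell types, although the labels name immature basal neurons as the cell type.

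SMAD4 is the partner that receptor-activated SMADs share when they carry signals of bone morphogenetic proteins (BMPs) and transforming growth factor β (TGFβ) to the nucleus. The VNO detects pheromones with vomeronasal sensory neurons (VSNs), of which apical ones express V1R receptors and the G protein subunit Gαi2, and basal ones express V2R receptors and Gαo. The neurons are generated from dividing progenitors at the margins of the epithelium, are supported by sustentacular cells, and face a lumen that is filled by secretory glands and lined on the other side by a ciliated epithelium. In bulk RNA of such an organ, fewer cells of a type and less RNA per cell cannot be told apart.

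The libraries held 43385516 to 134042284 estimated counts, and cKO replicate 2 was by far the deepest. Levels are given as CPM, the counts of a gene per 1000000 counts of its library, after normalization by trimmed means of M values (TMM). No drop of Smad4, on chromosome 18, was detected in the cKO organs: its level was 66.2, 66.7 and 33.6 CPM in cKO organs, 80.6, 70.1 and 39.6 CPM in flox/flox controls and 43.7, 79.5 and 41.5 CPM in AP-2εCre+/- controls. The groups overlapped, with a log2 fold change of -0.09 ± 0.30 (SE) and an adjusted p of 0.955. The gene sum takes in exons outside the floxed part and all cells of the organ, so it was no check of recombination in basal neurons. Tfap2e was lowest in AP-2εCre+/- controls, at 5.41, 8.16 and 8.88 CPM, against 15.4, 13.9 and 16.6 CPM in flox/flox controls. The cKO libraries lay between them, at 11.3, 10.0 and 12.4 CPM. Smad4 flox/flox replicate 3 goes against its label: the Y-linked genes Ddx3y and Eif2s3y had 2001 and 1667 counts there and 0 counts in each of the other 8 libraries. AP-2εCre+/- replicate 1 stood apart from the other controls in several gene lists, with the lowest neuronal and the highest sustentacular levels. Lists in which these libraries stood apart are given with and without them.

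Few single genes passed the test, while the members of several gene lists differed by small amounts in a common direction. Of 18495 genes tested by edgeR's quasi-likelihood test against all 6 controls, 7 had an adjusted p under 0.05 (0.0378%), of which 3 were higher (0.0162%) and 4 lower (0.0216%) in the cKO organs. Unc13c, Sez6l and Vmn1r1 rose, and Gm9765, Gm16589, Itln1 and Pisd-ps2 fell. Gm9765 and Gm16589 were at log2 fold changes of -10.8 and -8.76. Both stayed called when each library was left out in turn, and with a covariate for the name series of the libraries, which ended the other 5 calls. Neither was called with the left-out AP-2εCre library added to the heterozygotes (adjusted p of 0.157 and 0.163 by edgeR). In the letter-number name series alone Gm9765 was not called (adjusted p of 0.107 by edgeR). Leaving out 1 library also ended the calls of Itln1 and Pisd-ps2 unless it was Smad4 flox/flox replicate 1, and those of Unc13c, Sez6l and Vmn1r1 unless it was that library or AP-2εCre+/- replicate 1. At an unadjusted p under 0.05, 774 genes were higher (4.18%) and 1118 lower (6.04%), and the median log2 fold change over all genes was 0.003. DESeq2 called 309 genes (1.67%), 51 higher (0.276%) and 258 lower (1.39%). All 3 cKO libraries lay above all 6 controls for 2.35% of the genes and below them for 2.75%. These shares are the background against which the lists were read. The lists hold markers of cell types and members of pathways, and each is described by counts and by its median log2 fold change. A member is called nominally higher or lower where its unadjusted p was under 0.05, which is not a call after adjustment.

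**Figure D1:**
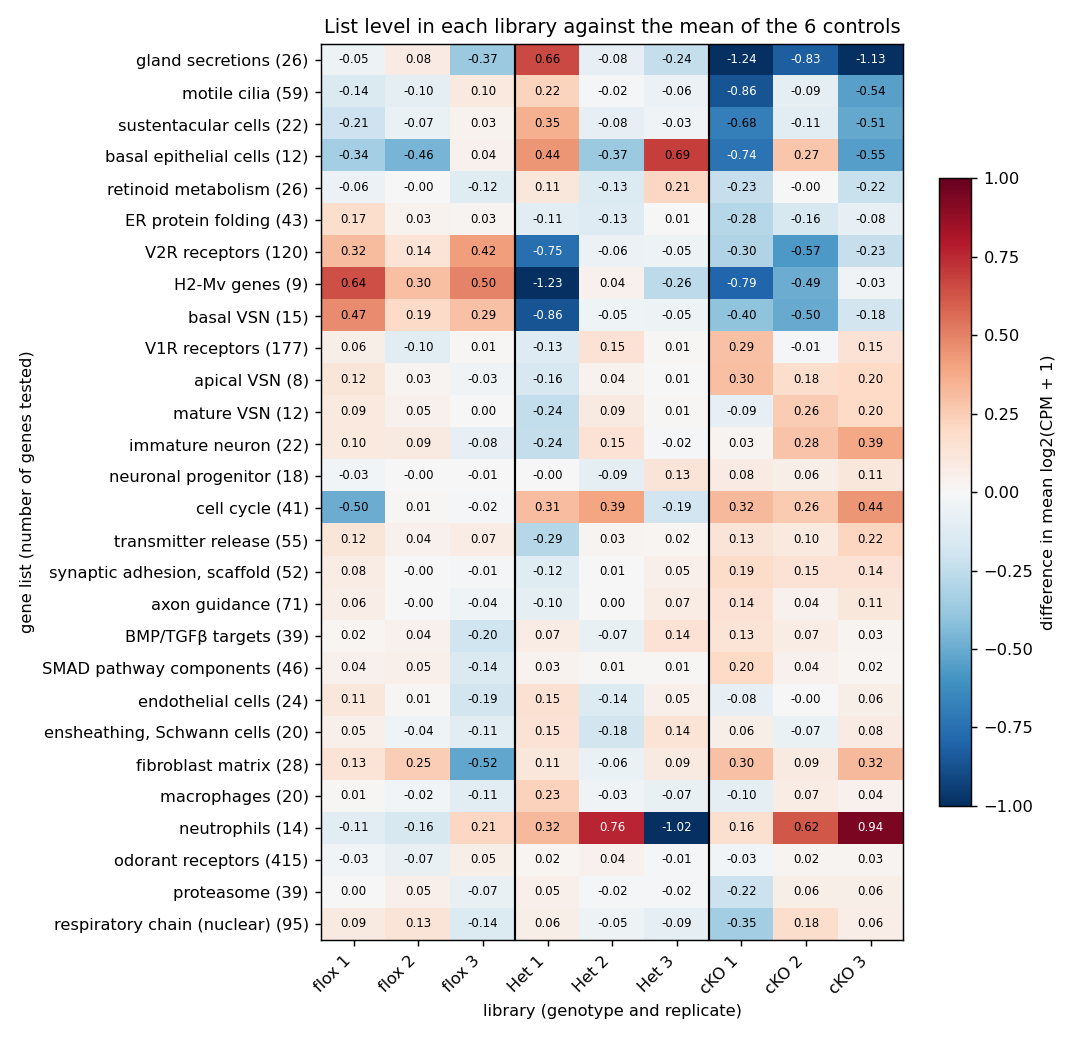
Difference of each of the 9 libraries from the mean of the 6 controls, as the mean of log2(CPM + 1) over the tested members, for 28 gene lists (rows) and the libraries by group and replicate (columns; flox is Smad4 flox/flox and Het is AP-2εCre+/-), with the value printed in each cell. Gland, motile cilia and sustentacular lists are lower in cKO replicates 1 and 3 than in the controls, and AP-2εCre+/- replicate 1 departs from the other controls in the neuronal and sustentacular rows.

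The secreted proteins of the vomeronasal and nasal glands were lower in the cKO organs. These genes encode lipocalins, odorant-binding proteins and major urinary proteins, small carriers of hydrophobic ligands in the mucus. The gland list matched 28 of its 30 entries and 26 genes were tested. Of these 26, 22 were lower and 4 higher in the cKO organs, with a median log2 fold change of -0.74; 12 were nominally lower, 1 nominally higher, and 8 lay below every control. None passed adjustment in edgeR, while DESeq2 called 7 of them. The summed level of the list was 100612, 150613 and 127807 CPM in cKO organs and 164711 to 312292 CPM in the controls, so that the groups did not overlap. Gland transcripts made up 11.3, 15.7 and 13.6% of all counts in cKO organs and 17.6 to 26.7% in the controls.

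Among the tested members of the gland list, the largest fall was that of Obp1a, in an X-chromosome cluster of odorant-binding protein genes. Obp1a had 33.7, 73.2 and 17.3 CPM in cKO organs, 484, 3899 and 271 CPM in flox/flox controls and 9208, 1445 and 1263 CPM in AP-2εCre+/- controls. Obp1b had 50.3, 82.3 and 16.7 CPM in cKO organs, 540.1, 4260.0 and 293 CPM in flox/flox controls and 9479, 1573 and 2260.3 CPM in AP-2εCre+/- controls. Every cKO library was below every control for both genes, although the controls themselves spanned more than an order of magnitude. The log2 fold changes were -6.06 ± 1.33 and -5.94 ± 1.28 (SE), each with an adjusted p of 0.257. Gm5938 and Gm14743, predicted genes of the same cluster, had log2 fold changes of -7.16 and -6.03. The 4 genes together had 100.3, 205 and 44.4 CPM in cKO organs and 719 to 23926 CPM in the controls. Obp1b and Gm14743 are alike in their start regions, as are Obp1a and Gm5938, while the transcripts were not compared. Where the transcripts are alike too, the split of reads among the genes is uncertain and the sum is the safer value.

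The promoters of Obp1a and Obp1b are shown because each of them has a copy in the cluster with a closely similar start region. They were taken from RefSeq on GRCm38.p6, from 250 bases before to 50 bases after the start of the gene, and are written 5′ to 3′ on the strand of the gene, with the letters TATAAA in capitals. The Obp1a promoter is chrX:78091325-78091624 on the minus strand and the Obp1b promoter is chrX:78186558-78186857 on the plus strand.
Obp1a: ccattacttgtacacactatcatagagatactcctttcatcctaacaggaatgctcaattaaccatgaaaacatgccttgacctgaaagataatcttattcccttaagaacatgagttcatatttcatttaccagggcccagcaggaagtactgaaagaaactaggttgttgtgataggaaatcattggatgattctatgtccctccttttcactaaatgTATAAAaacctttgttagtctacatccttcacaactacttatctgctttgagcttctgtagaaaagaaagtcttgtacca
Obp1b: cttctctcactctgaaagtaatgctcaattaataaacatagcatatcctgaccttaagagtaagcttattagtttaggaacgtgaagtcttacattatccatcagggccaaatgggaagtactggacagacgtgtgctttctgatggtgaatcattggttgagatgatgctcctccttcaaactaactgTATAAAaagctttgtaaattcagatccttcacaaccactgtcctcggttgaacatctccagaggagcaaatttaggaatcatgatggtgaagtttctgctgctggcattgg
Without gaps, the Obp1b promoter was identical to that of Gm14743 at 291 of 291 aligned bases, and the Obp1a promoter to that of Gm5938 at 279 of 300 (93%). Obp1a and Obp1b were unlike each other here, matching at 132 of 270 bases. On either strand, TATAAA stood in 11 of the 23 gland genes with a promoter (47.8%) and in 15.7% of the 27025 genes with one. The match is a description of the letters and not a test of binding.

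The abundant lipocalins showed a smaller and more even difference. Lcn4 on chromosome 2, a carrier of the vomeronasal mucus, had 4192, 3739.7 and 5037 CPM in cKO organs, 16352, 8761 and 8704 CPM in flox/flox controls and 10067, 8519 and 8200 CPM in AP-2εCre+/- controls. All cKO values were below all control values, and the log2 fold change was -1.22 ± 0.24 (SE, adjusted p = 0.249). Lcn3 followed with a log2 fold change of -0.71, Obp2a with -0.78, Obp2b with -0.92 and Lcn11 with -2.03. The major urinary protein genes Mup4 and Mup5 were at log2 fold changes of -4.03 and -4.98. The genes of antimicrobial secretion lay closer to the controls: Ltf, encoding lactoferrin, was at -0.18, Bpifa1 at -0.53 and Dmbt1 at -0.54, and the groups overlapped for all 3. Crisp1, a cysteine-rich secretory protein, had 0, 3.48 and 0.847 CPM in cKO organs against 10.6 to 1204 CPM in the controls.

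The gland difference was present against each kind of control. The median log2 fold change of the list was -0.84 against the Smad4 flox/flox controls alone and -0.56 against the AP-2εCre+/- controls alone, and -0.14 between the 2 kinds of control. Against Smad4 flox/flox alone 11 of 26 members were nominally lower (4.52% of all genes), and against AP-2εCre+/- alone also 11 (4.78%). The median was -0.66 without Smad4 flox/flox replicate 3 and -0.68 without AP-2εCre+/- replicate 1. How much gland tissue was dissected with each organ was not measured, and its part in the result was not tested.

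**Figure D2:**
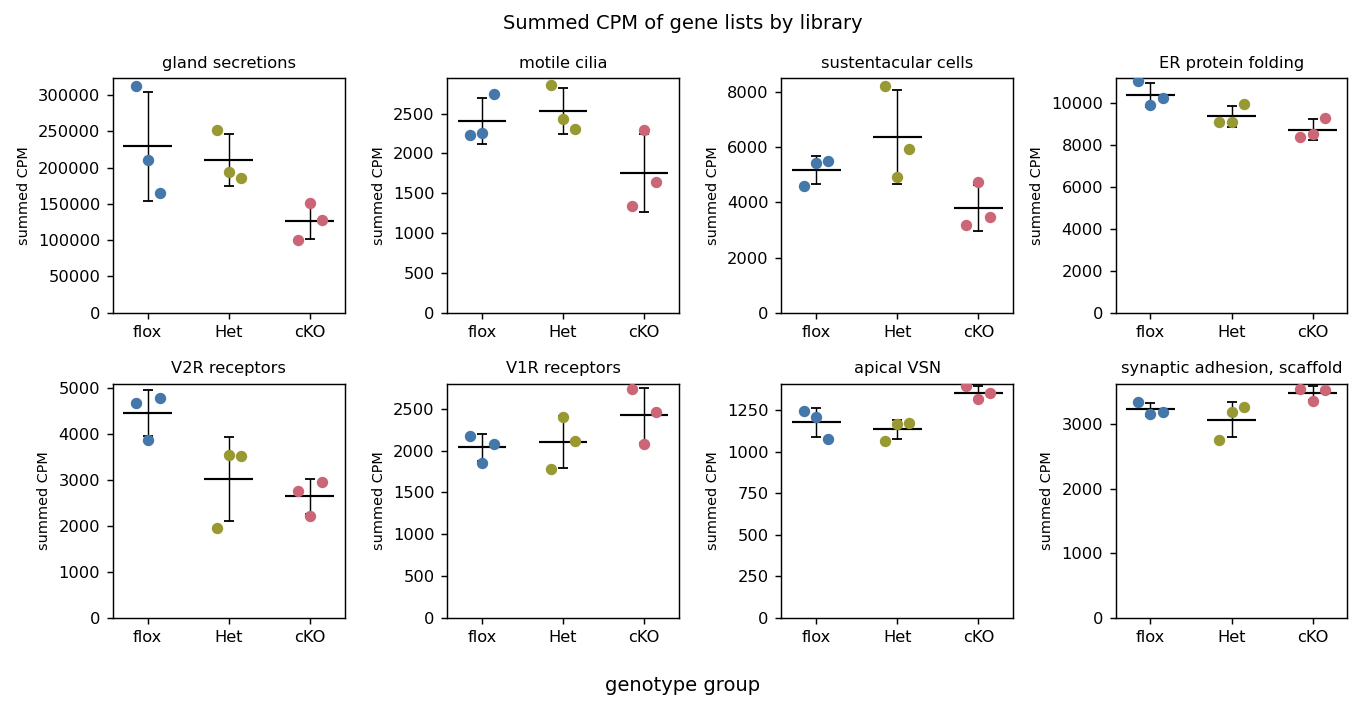
Summed CPM of 8 gene lists in each library (points), by group, with the group mean ± SD (n = 3) as bars. The cKO points lie below all controls for the gland list and above all controls for the apical list, while the motile cilia and V2R points overlap with the controls.

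Genes of motile cilia were lower as a whole. The list holds axonemal dyneins, cilia- and flagella-associated proteins and the regulators of multiciliated cells. All 59 members were tested and all 59 were lower in the cKO organs, with a median log2 fold change of -0.47; 34 were nominally lower (57.6%, against 6.04% of all genes) and 12 lay below every control (2.75% of all genes). None passed adjustment in edgeR and 11 were called by DESeq2. The summed level was 1338, 2288 and 1637 CPM in cKO organs, 2229 to 2739 CPM in flox/flox controls and 2309.8 to 2861 CPM in AP-2εCre+/- controls. The second cKO library was thus within the range of the controls, and the other 2 below it.

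Dnah7a on chromosome 1, an inner-arm dynein heavy chain, had 2.45, 3.52 and 3.42 CPM in cKO organs, 6.20, 5.68 and 6.95 CPM in flox/flox controls and 7.32, 8.56 and 5.60 CPM in AP-2εCre+/- controls. Each cKO library was below each control, with a log2 fold change of -1.10 ± 0.19 (SE, adjusted p = 0.15). Dnah9, an outer-arm dynein, was at 63.6, 108 and 79.5 CPM in cKO organs against 116 to 170.3 CPM in the controls (log2 fold change -0.72). Cfap54, a protein of the central pair apparatus, was at -0.79, Dnah5 at -0.52, Dnah12 at -0.81, Ak7 at -0.53, Cfap45 at -0.53 and Ccdc39 at -0.52. These genes also lay below every control. Of the regulators, Mcidas, which starts the multiciliated program, was at 1.13, 1.34 and 1.47 CPM in cKO organs and 1.87 to 3.48 CPM in the controls. Foxj1, the master factor of motile cilia, overlapped with the controls at 54.9, 107 and 75.0 CPM against 76.8 to 134 CPM. Rfx3, a factor that binds X-box sites of ciliary genes, was at a log2 fold change of -0.20.

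The size of the ciliary difference depended on the cKO library. Without replicate 2 the median was -0.72 and 53 of 59 members were nominally lower (6.88% of all genes). Without replicate 1 it was -0.29 with 19 members (6.02%), and without replicate 3 it was -0.44 with 21 (4.04%). Without Smad4 flox/flox replicate 3 the median was -0.46 with 30 members (5.31%), and without AP-2εCre+/- replicate 1 it was -0.43 with 30 (5.33%). The shares in parentheses are those of all genes in the same setting. The median was -0.42 against Smad4 flox/flox alone, -0.51 against AP-2εCre+/- alone and 0.11 between the controls. The same cKO libraries, 1 and 3, were lowest in the sustentacular list.

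The Dnah7a promoter is shown as an example of the letters GTTGCC, the half-site of RFX factors, in a gene of this program. It lies at chr1:53706735-53707034 on the minus strand (RefSeq, GRCm38.p6), and the half-site is in capitals.
Dnah7a: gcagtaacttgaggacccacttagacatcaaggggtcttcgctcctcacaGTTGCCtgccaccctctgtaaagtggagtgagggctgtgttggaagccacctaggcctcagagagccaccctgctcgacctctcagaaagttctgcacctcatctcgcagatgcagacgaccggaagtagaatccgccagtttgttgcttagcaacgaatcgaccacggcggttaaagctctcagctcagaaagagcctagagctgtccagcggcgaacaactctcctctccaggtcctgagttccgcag
On either strand, the half-site stood in 23 of the 47 ciliary genes with a promoter (48.9%) and in 14.1% of the 27025 genes with one. The letters GTAAACA of forkhead factors stood in 3 of the 47, against 4.05% of all genes.

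Sustentacular and other epithelial genes were lower in the same libraries. Sustentacular cells carry xenobiotic enzymes that clear odorants. Of the 22 tested genes of that list, 9 were nominally lower and 1 nominally higher, 19 were lower in all, and the median log2 fold change was -0.29. Fmo2, a flavin-containing monooxygenase, had 44.4, 48.7 and 34.7 CPM in cKO organs, 55.0, 62.5 and 85.5 CPM in flox/flox controls and 88.9, 67.3 and 77.5 CPM in AP-2εCre+/- controls. Its cKO values were below all controls, with a log2 fold change of -0.77 ± 0.17 (SE, adjusted p = 0.257). Gsta3 and Ces1d lay below every control as well, at log2 fold changes of -0.76 and -0.48. The cytochromes Cyp2f2 and Cyp2a5 were at -0.93 and -1.37, and the carbonyl reductase Cbr2 at -0.28. Nrcam, a cell adhesion molecule that neurons express too, was the nominally higher member at 0.47. The median was -0.54 without cKO replicate 2, -0.18 without replicate 1 and -0.25 without AP-2εCre+/- replicate 1.

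Enzymes that make retinoic acid were among these epithelial genes. The retinoid list as a whole had a median log2 fold change of -0.04 over 26 tested genes, of which 14 were lower and 12 higher. Of these, 5 were nominally lower and none nominally higher. The summed level of the list was 731, 928 and 719.8 CPM in cKO organs and 964 to 1362 CPM in the controls. Aldh1a1, a retinaldehyde dehydrogenase, had 93.3, 222 and 109 CPM in cKO organs, 246, 298 and 326 CPM in flox/flox controls and 504, 290.3 and 422 CPM in AP-2εCre+/- controls. All cKO values were lower than all control values, with a log2 fold change of -1.30 ± 0.31 (SE, adjusted p = 0.269). The alcohol dehydrogenases Adh1 and Adh7 and the retinol dehydrogenase Dhrs9 were at -0.56, -1.23 and -1.25. The markers of basal epithelial cells, among them Krt15 at -1.07 and Krt5 at -0.51, had a median of -0.29 with 4 of 12 nominally lower. This median was -0.43 against AP-2εCre+/- and -0.04 against Smad4 flox/flox, it ranged from -0.57 to -0.13 when each library was left out in turn, and no member was nominally lower without cKO replicate 1, cKO replicate 3 or AP-2εCre+/- replicate 3.

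Genes of protein folding and quality control in the endoplasmic reticulum (ER) were slightly lower almost throughout. Of 43 tested genes, 40 were lower, 10 were nominally lower and none higher, and 6 lay below every control. The median log2 fold change was -0.17, and 5 to 15 members were nominally lower when each library was left out in turn, fewest without cKO replicate 2. Xbp1 on chromosome 11, a transcription factor of the unfolded protein response that secretory cells need, had 175, 198 and 197 CPM in cKO organs, 244, 243 and 226 CPM in flox/flox controls and 241, 206 and 219.8 CPM in AP-2εCre+/- controls. Its values did not overlap with the controls and its log2 fold change was -0.28 ± 0.08 (SE, adjusted p = 0.324). Dnajc3, an ER co-chaperone, was at -0.44, Derl3, a component of ER-associated degradation, at -0.73, and Ssr3, a subunit of the translocon-associated complex, at -0.24. The chaperones Hspa5 and Hsp90b1 were at -0.24 and -0.17 and overlapped with the controls. The median was -0.24 against Smad4 flox/flox, -0.08 against AP-2εCre+/- and -0.14 between the controls, so the AP-2εCre+/- controls lay between the other groups. The gland list was lower in the same cKO libraries, and the part of secretory tissue in the ER difference was not tested.

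The promoters of Derl3, Dnajc3 and Hspa5 are shown because each holds the ER stress element, CCAAT and CCACG with any 9 letters between them, which is bound by factors of the unfolded protein response. They lie at chr10:75893148-75893447, chr14:118937682-118937981 and chr2:34771840-34772139, all on the plus strand (RefSeq, GRCm38.p6), and the element is in capitals. In Derl3 it is on the opposite strand.
Derl3: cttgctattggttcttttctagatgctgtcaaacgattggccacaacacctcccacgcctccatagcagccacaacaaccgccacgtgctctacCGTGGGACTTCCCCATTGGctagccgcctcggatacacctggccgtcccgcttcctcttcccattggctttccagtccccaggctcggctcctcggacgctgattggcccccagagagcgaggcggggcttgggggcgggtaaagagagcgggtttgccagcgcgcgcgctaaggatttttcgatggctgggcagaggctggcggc
Dnajc3: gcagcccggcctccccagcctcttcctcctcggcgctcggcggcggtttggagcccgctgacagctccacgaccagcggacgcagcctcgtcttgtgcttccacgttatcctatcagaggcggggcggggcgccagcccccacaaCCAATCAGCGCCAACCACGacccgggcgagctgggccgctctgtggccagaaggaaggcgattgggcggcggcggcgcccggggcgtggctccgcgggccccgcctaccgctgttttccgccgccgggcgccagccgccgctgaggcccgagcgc
Hspa5: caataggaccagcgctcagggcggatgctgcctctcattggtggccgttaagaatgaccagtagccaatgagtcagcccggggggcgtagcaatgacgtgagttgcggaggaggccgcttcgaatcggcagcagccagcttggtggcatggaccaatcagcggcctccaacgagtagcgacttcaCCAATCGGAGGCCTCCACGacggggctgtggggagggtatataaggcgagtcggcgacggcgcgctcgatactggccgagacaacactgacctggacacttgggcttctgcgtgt
Searched on both strands, the element stood in 10 of the 35 ER genes with a promoter (28.6%) and in 0.137% of the 27025 genes with one.

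**Figure D3:**
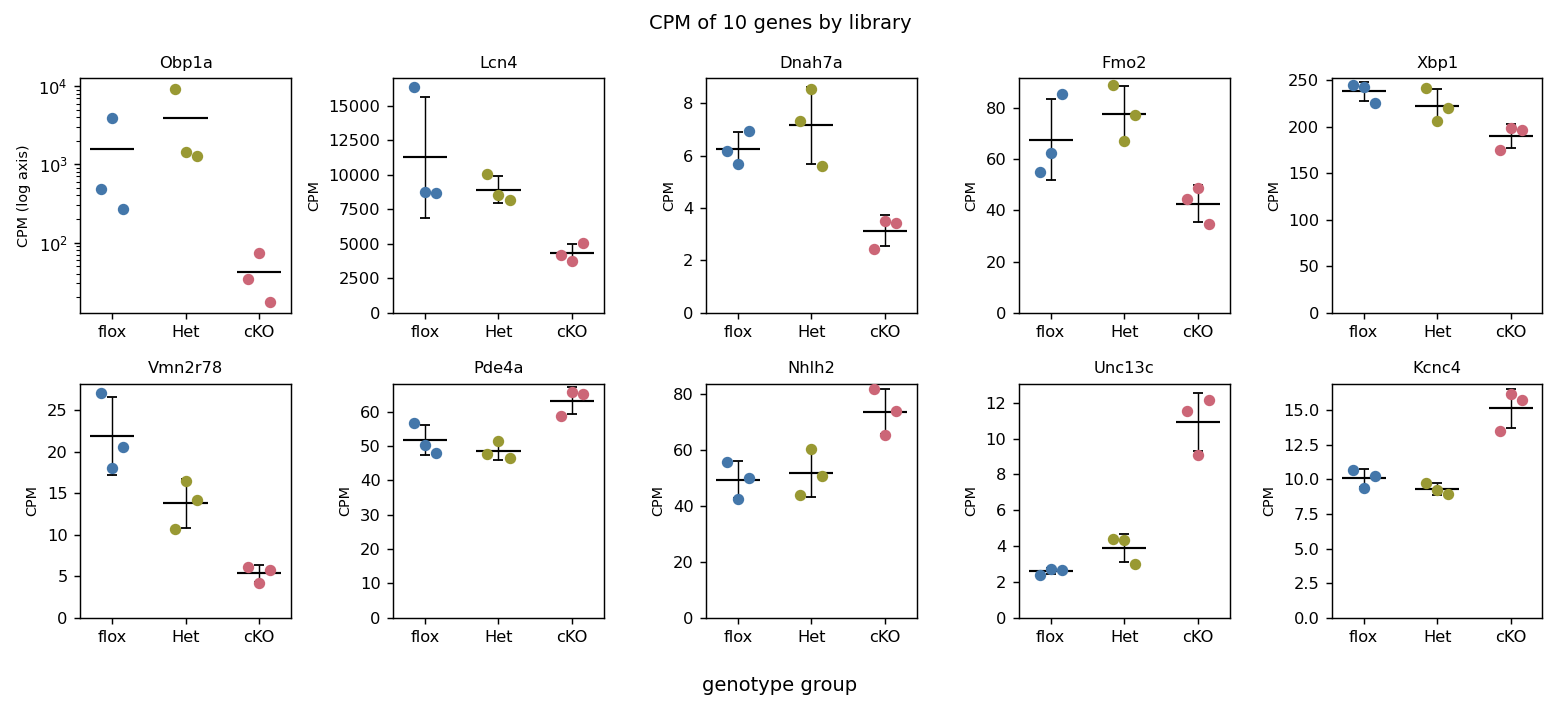
CPM of 10 genes in each library (points) by group, with the group mean ± SD (n = 3); Obp1a is on a log axis without SD and all other axes are linear. In all 10 panels the 3 cKO points lie on 1 side of all 6 controls.

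Receptors of basal neurons were lower in the cKO organs than in Smad4 flox/flox controls, while 2 of the 3 AP-2εCre+/- controls lay between these groups and 1 below both. The V2R list matched 121 genes, of which 120 were tested. Against all controls, 100 were lower and 20 higher, 34 were nominally lower and 2 higher, and the median log2 fold change was -0.39. None passed adjustment in edgeR there, while DESeq2 called 12 of them lower. Against Smad4 flox/flox alone the median was -0.68 and 77 of 119 were nominally lower (4.52% of all genes). In that fit edgeR called 8 of them lower, of 21 genes called lower in all. Against AP-2εCre+/- alone the median was -0.09, with 8 nominally lower and 8 nominally higher (4.32% of all genes). None was called in that fit. The AP-2εCre+/- controls were themselves at -0.64 against Smad4 flox/flox, with 57 of 119 nominally lower (2.52% of all genes) and 2 higher (2.66%). The summed V2R level was 2767, 2223 and 2955 CPM in cKO organs, 4686, 3878 and 4795 CPM in flox/flox controls and 1966, 3554 and 3536 CPM in AP-2εCre+/- controls. AP-2εCre+/- replicates 2 and 3 lay above every cKO library and below every flox/flox control, while replicate 1 had the lowest sum of all. Without replicate 1 the median against the other 5 controls was -0.52 and 64 of 120 were nominally lower, whereas the values against AP-2εCre+/- alone and between the controls include it. Without cKO replicate 2 it was -0.32 with 18 members.

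Single V2R genes differed in how far they followed the kind of control. Vmn2r78 on chromosome 7 had 6.11, 4.22 and 5.82 CPM in cKO organs, 27.1, 18.04 and 20.6 CPM in flox/flox controls and 10.7, 16.5 and 14.3 CPM in AP-2εCre+/- controls. It was below every control of both kinds, with a log2 fold change of -1.73 ± 0.27 (SE, adjusted p = 0.123). Vmn2r43 was at -1.46 and Vmn2r9 at -1.02. The receptors Vmn2r4, Vmn2r5, Vmn2r6 and Vmn2r7, of the family that basal neurons express together with another V2R, were at -1.15, -3.56, -1.12 and -0.71, and AP-2εCre+/- replicate 1 was as low as the cKO libraries for each of them. The H2-Mv genes, class I-like molecules that accompany V2Rs in a subset of basal neurons, had a median of -0.90 against Smad4 flox/flox, -0.31 against AP-2εCre+/- and -1.15 between the controls. Against all controls it was -0.66 with 2 of 9 nominally lower, and -0.80 with 6 without AP-2εCre+/- replicate 1. Without cKO replicate 3 it was -1.03 with 4 nominally lower. Without cKO replicate 1, cKO replicate 2 or Smad4 flox/flox replicate 3, 1 was nominally lower. H2-M9 was at 0.944, 2.07 and 2.83 CPM in cKO organs, 15.4, 10.7 and 10.9 CPM in flox/flox controls and 1.14, 3.49 and 2.58 CPM in AP-2εCre+/- controls. Its cKO and AP-2εCre+/- values overlapped, and both were below all flox/flox values.

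The list of basal markers, which shares 7 of its 15 genes with the V2R list, also differed by the kind of control. It holds Gnao1, Tfap2e, Robo2 and Kirrel3 beside these receptors and had a median log2 fold change of -0.08 against all controls, -0.40 against Smad4 flox/flox, 0.04 against AP-2εCre+/- and -0.50 between the controls. Against all controls 12 of 15 were lower and 5 nominally; without AP-2εCre+/- replicate 1 the median was -0.16 with 14 lower, and without cKO replicate 2 it was -0.04 with 2 nominally lower. Gnao1, which encodes Gαo, was at 175, 185 and 209 CPM in cKO organs, 243, 204 and 219.9 CPM in flox/flox controls and 135, 191 and 186 CPM in AP-2εCre+/- controls. Krt18 was at -0.03. The loss of 1 Tfap2e copy is shared by the AP-2εCre+/- and cKO animals, so against Smad4 flox/flox alone it cannot be told apart from the loss of Smad4.

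Markers of apical neurons were higher, while V1R receptors were higher in 2 of the 3 cKO libraries. All 8 apical genes were higher in the cKO organs, 4 of them nominally (4.18% of all genes) and 4 above every control (2.35%), with a median log2 fold change of 0.26. Without cKO replicate 3, 2 were nominally higher. The median was 0.23 against each kind of control alone and -0.05 between them. The summed level was 1393, 1319 and 1354 CPM in cKO organs and 1066 to 1243 CPM in the controls. Pde4a on chromosome 9, a cAMP phosphodiesterase, had 58.8, 65.9 and 65.1 CPM in cKO organs, 56.7, 50.4 and 48.1 CPM in flox/flox controls and 47.6, 51.6 and 46.4 CPM in AP-2εCre+/- controls. Every cKO value was above every control, with a log2 fold change of 0.34 ± 0.08 (SE, adjusted p = 0.269). Nrp2, the guidance receptor of apical axons, was at 0.29, Gnai2 at 0.28 and Nqo1 at 0.32. Of 177 tested V1R genes, 135 were higher, 25 nominally higher and 4 nominally lower, with a median of 0.20. The summed V1R level was 2735, 2079 and 2457 CPM in cKO organs and 1780 to 2405 CPM in the controls, so that the second cKO library lay within their range. The median was 0.10 without cKO replicate 1, and the count rested on that library. Without Smad4 flox/flox replicate 3, 19 members were nominally higher (3.84% of all genes), but without cKO replicate 1 3 members were nominally higher (3.69% of all genes), without cKO replicate 2 there were 41 (3.78%) and without cKO replicate 3 there were 15 (2.74%). Vmn1r1 was the only V1R gene called by edgeR against all 6 controls. Without Smad4 flox/flox replicate 3, and against AP-2εCre+/- alone, edgeR called Vmn1r20 lower and not Vmn1r1. DESeq2 called Vmn1r1 higher and 3 V1R genes lower, Vmn1r20, Vmn1r114 and Vmn1r119, the last 2 named after their values were seen. Vmn1r20 was at 0.294, 0.329 and 0.102 CPM in cKO organs and 5.16 to 8.62 CPM in 5 controls, with 0.130 CPM in Smad4 flox/flox replicate 3.

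The balance of the receptor families was computed within each library as summed V2R over summed V1R level. This ratio and the ratio of Gnao1 to Gnai2 were chosen after the values had been seen and carry no test. V2R over V1R was 1.012, 1.069 and 1.203 in cKO organs, 2.15, 2.09 and 2.31 in flox/flox controls and 1.10, 1.48 and 1.67 in AP-2εCre+/- controls. The cKO ratios were the lowest group, and the first AP-2εCre+/- control lay among them. Gnao1 over Gnai2 was 0.418, 0.422 and 0.440 in cKO organs, 0.621, 0.501 and 0.690 in flox/flox controls and 0.399, 0.506 and 0.520 in AP-2εCre+/- controls. The order of the groups was the same, and again AP-2εCre+/- replicate 1 was the only control that was not above all cKO libraries.

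**Figure D4:**
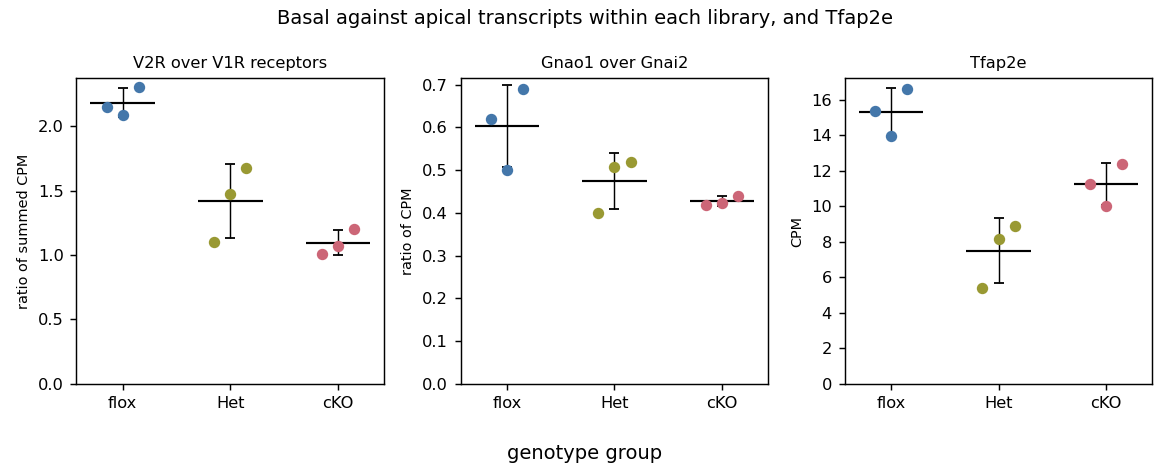
Summed V2R over summed V1R CPM, Gnao1 over Gnai2 CPM and Tfap2e CPM in each library (points) by group, with the group mean ± SD (n = 3). Both ratios decrease from Smad4 flox/flox over AP-2εCre+/- to cKO, with means of 2.18, 1.42 and 1.09 for the receptor ratio, whereas Tfap2e is lowest in AP-2εCre+/-.

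Most genes of immature neurons and of dividing cells were higher, with summed levels that overlapped with the controls. Of 22 tested immature neuron genes, 21 were higher, 8 nominally and none nominally lower, with a median log2 fold change of 0.25 (0.21 against Smad4 flox/flox, 0.29 against AP-2εCre+/-). Their summed level was 3170 to 4043 CPM in cKO organs and 2709 to 3475 CPM in the controls. Nhlh2 on chromosome 3, a basic helix-loop-helix factor of developing neurons, had 81.7, 65.5 and 74.0 CPM in cKO organs, 55.7, 42.5 and 49.9 CPM in flox/flox controls and 43.8, 60.3 and 50.9 CPM in AP-2εCre+/- controls. Its cKO values were above all controls, with a log2 fold change of 0.54 ± 0.12 (SE, adjusted p = 0.257). The growth cone proteins Dpysl5 and Stmn2 were at 0.45 and 0.31, the LIM factor Lhx2 at 0.34 and Gap43 at 0.31. Without cKO replicate 3, 2 immature neuron genes were nominally higher, and without replicate 1 there were 12. The progenitor list was not on 1 side: of 18 genes 10 were higher and 8 lower, 4 nominally higher and 1 nominally lower, and the summed level of 469 to 493 CPM lay within the 452 to 522 CPM of the controls. Its median was 0.11, and -0.04 without cKO replicate 3. Insm1, a zinc finger factor of newly formed neurons, was at 0.41. The mature VSN list was at 0.16, with 1 of 12 genes nominally higher and 1 nominally lower, at 0.26 with 5 nominally higher without cKO replicate 1 and at 0.14 without AP-2εCre+/- replicate 1, and its summed level was 1345, 1419.9 and 1511 CPM in cKO organs against 1044 to 1332 CPM in the controls, so mature and immature markers were both on the higher side.

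All 41 cell cycle genes were higher, with a median log2 fold change of 0.34 and 6 nominally higher. Their summed level was 718 to 803 CPM in cKO organs and 400.03 to 784 CPM in the controls. Mki67, the proliferation marker, had 125, 107 and 121 CPM in cKO organs, 59.3, 60.6 and 90.3 CPM in flox/flox controls and 91.2, 107 and 48.0 CPM in AP-2εCre+/- controls. The second AP-2εCre+/- control reached the cKO range, and the log2 fold change was 0.63 ± 0.23 (SE, adjusted p = 0.383). Plk1, Cenpf and Ube2c, which act in mitosis, were at 0.62, 0.49 and 0.57. The median was 0.56 against Smad4 flox/flox, with 23 of 41 nominally higher (3.56% of all genes), and 0.18 against AP-2εCre+/-, with none nominally higher. Between the controls it was 0.38. Without AP-2εCre+/- replicate 1, 10 genes were nominally higher (3.83% of all genes), and without cKO replicate 3 there was 1 (2.74% of all genes), no more than the background. Genes of white blood cells did not move alike: all 14 neutrophil genes had fold changes above 0, at a median of 0.47 with 1 nominally higher, as had 14 of 20 lymphocyte genes at 0.16 with 1 nominally higher, and macrophage genes were split evenly at -0.0019. The summed levels of all 3 lists overlapped with the controls. When each library was left out in turn, the neutrophil median ranged from 0.25 (without cKO replicate 3) to 0.76. The lymphocyte median ranged from 0.025 (without AP-2εCre+/- replicate 3) to 0.36. Genes of red blood cells were at a median of 0.37, with 8 of 9 above 0, 1 nominally higher and a summed level of 2816 to 3938 CPM in cKO organs against 1608 to 3533 CPM in the controls. The part of these blood cells in the cell cycle values was not tested.

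**Figure D5:**
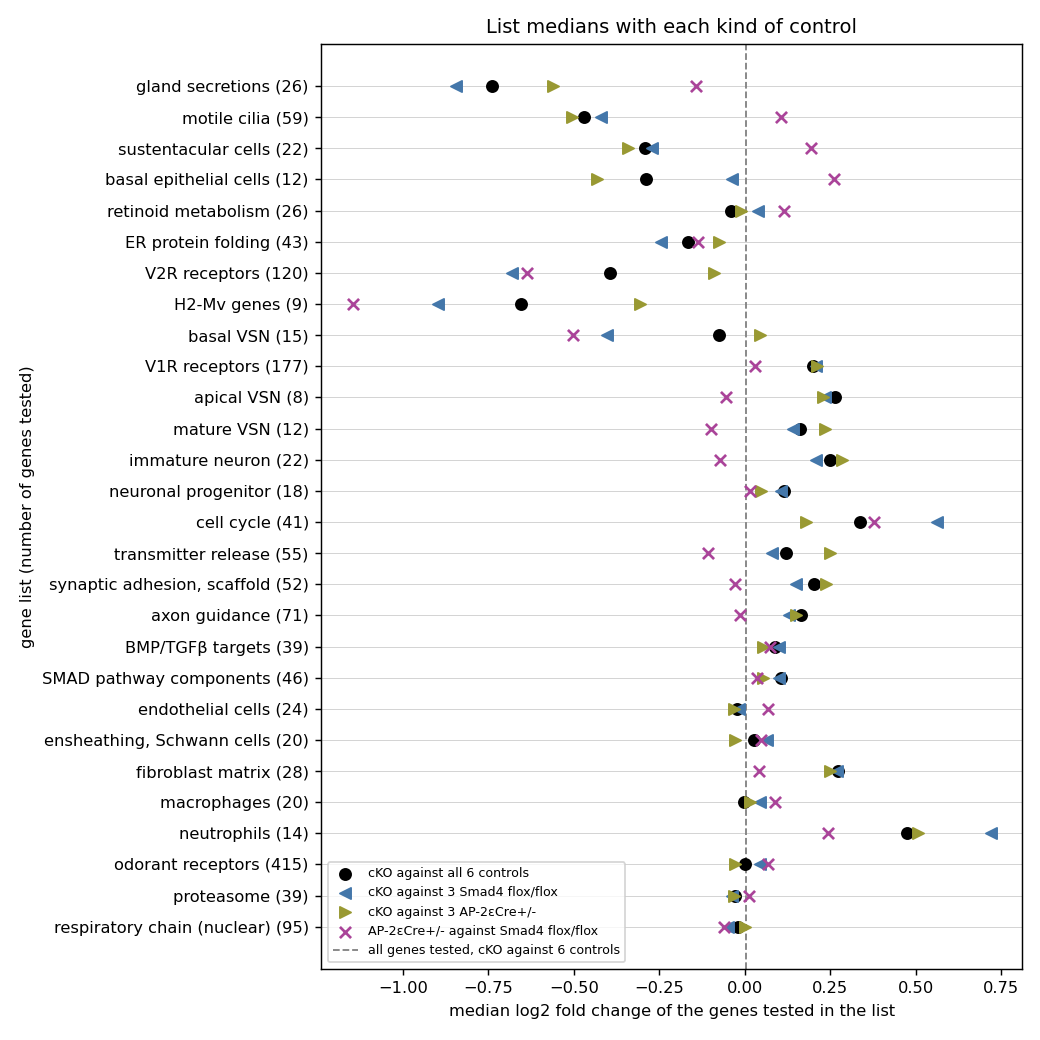
Median log2 fold change of each gene list for cKO against all 6 controls, against Smad4 flox/flox alone and against AP-2εCre+/- alone, and for AP-2εCre+/- against Smad4 flox/flox. Gland and motile cilia lists are below 0 against each control kind, whereas the V2R, H2-Mv and basal lists are lower against Smad4 flox/flox than against AP-2εCre+/- and are also below 0 between the controls.

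Synaptic adhesion and axon guidance genes were slightly higher by their summed levels, while genes of transmitter release and potassium channels overlapped with the controls. Of the 7 genes that passed adjustment, 2 were in these lists. The lists were written with earlier results of these data known, and the study names Unc13c as raised. The place of these genes in the lists is therefore no separate evidence. Of 55 tested genes of transmitter release 45 were higher, 10 nominally and none nominally lower, and 7 lay above every control, with a median log2 fold change of 0.12. The summed level was 2998 to 3362 CPM in cKO organs and 2173 to 3140 CPM in the controls. Without AP-2εCre+/- replicate 1, which had the lowest sum, the median was 0.059 with 9 nominally higher and 2 nominally lower, and without cKO replicate 3 there were 5 nominally higher. The median was 0.08 against Smad4 flox/flox alone, with 6 nominally higher and 3 lower, 0.25 against AP-2εCre+/- alone and -0.11 between the controls. Unc13c on chromosome 9, a priming factor of synaptic vesicles, rose to 3.36 times the control mean (log2 fold change 1.74 ± 0.22, adjusted p = 0.0353, higher in all 3 cKO libraries than in all 6 controls). Cacna1a, a presynaptic calcium channel, was at 0.55, Cplx2 at 0.27, Erc1 at 0.25 and Syt11 at 0.27. Of 52 tested genes of synaptic adhesion and scaffolds, 11 were nominally higher and 1 lower, 41 were higher in all, and the median was 0.20 (0.17 without AP-2εCre+/- replicate 1). Without cKO replicate 1, 4 were nominally higher. Their summed level was 3546, 3351 and 3529 CPM in cKO organs and 2753 to 3340.1 CPM in the controls. Sez6l rose to 4.02 times the control mean (log2 fold change 2.01 ± 0.25, adjusted p = 0.0353, again without overlap). The log2 fold change stayed at 1.66 to 1.86 for Unc13c and 1.89 to 2.09 for Sez6l when each library was left out in turn. With the covariate for the name series, neither was called (adjusted p of 0.0717 for Unc13c and 0.0884 for Sez6l by edgeR). Ptprs, a receptor phosphatase of presynaptic organization, was at 0.36, Nlgn3 at 0.38 and Homer2 at 0.41.

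Of 71 axon guidance genes 57 were higher, with a median log2 fold change of 0.16. Nominally higher were 11 (15.5%, against 4.18% of all genes) and nominally lower 4 (5.63%, near the 6.04% of all genes). Their summed level was 4521 to 4835 CPM in cKO organs against 3771 to 4476.96 CPM in the controls. Without cKO replicate 3, 6 were nominally higher, and without Smad4 flox/flox replicate 3 or cKO replicate 1, 1 was nominally lower. Ntn1, a secreted guidance cue, was at 0.37 and Dscaml1 at 0.52, while Unc5a, a netrin receptor, was at -2.18. Robo2, the receptor of basal axons, was at 0.27, and Kirrel2 and Kirrel3, adhesion molecules that sort axons into glomeruli, were at 0.01 and 0.02. Of 85 potassium channel genes 52 were higher, with a median of 0.15. Nominally higher were 9 (10.6%, against 4.18% of all genes) and nominally lower 6 (7.06%, near the 6.04% of all genes). Without cKO replicate 1 the median was 0.03, with 4 nominally higher (3.69% of all genes) and 4 nominally lower (6.02%). Their summed level of 1252 to 1360 CPM overlapped with the 1131 to 1338 CPM of the controls. Kcnc4 on chromosome 3, a fast voltage-gated subunit, had 13.5, 16.1 and 15.7 CPM in cKO organs, 10.7, 9.39 and 10.2 CPM in flox/flox controls and 9.74, 9.21 and 8.94 CPM in AP-2εCre+/- controls. All cKO values were higher than all control values, with a log2 fold change of 0.64 ± 0.10 (SE, adjusted p = 0.115). Kcnab2, a β subunit, was at 0.45 and the inward rectifier Kcnj13 of epithelia at -0.98. Of 34 genes of VSN transduction 26 were higher, with a median of 0.09 that was 0.03 without AP-2εCre+/- replicate 1. Nominally higher were 4 (11.8%) and nominally lower 2 (5.88%, near the 6.04% of all genes). The T-type channel Cacna1g was at 0.41 and Plcb4 at -0.44.

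Known targets of BMP and TGFβ signalling were near the background. Of 39 tested targets, 2 were nominally higher and 2 nominally lower, near the share over all genes, and the median log2 fold change was 0.09 (0.03 without Smad4 flox/flox replicate 3). The immediate BMP targets Id1, Id2, Id3 and Id4, inhibitors of basic helix-loop-helix factors, were at -0.11, -0.25, -0.06 and -0.21. Id1 had 25.4, 26.2 and 20.2 CPM in cKO organs, within the range of 18.2 to 38.6 CPM in the controls. Pmepa1, a feedback inhibitor of TGFβ signalling, was at 0.35 and lay above every control, while Runx1 and Hes1 were at -0.33 and -0.34. Of 46 ligands, receptors, SMADs and modulators of the pathway, 5 were nominally higher and 2 nominally lower, at a median of 0.11 (0.02 with 1 nominally higher without cKO replicate 1). The protease Bmp1 was at 0.34, Fstl1 at 0.29, Gdf11 at 0.24, Tgfb1 at 0.41 and the activin subunit Inhbb at -0.44. The letters GGCGCC, bound by SMADs of the BMP branch, stood in 11 of 26 targets with a promoter (42.3%) and in 13.4% of all genes, but also in 28.6% of the ER genes and 27% of the synaptic adhesion genes with one. The shorter SMAD letters CAGAC stood in 14 of the 26 (53.8%) and in 53.2% of all genes.

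Among lists of other tissues in the dissected organ, 3 of 15 smooth muscle, 3 of 16 bone and 3 of 20 macrophage genes were nominally higher (4.18% of all genes), and 0, 1 and 1 nominally lower (6.04%). The higher count was 1 for smooth muscle without cKO replicate 1, for bone without cKO replicate 3 and for macrophages without cKO replicate 2 or 3. Of 20 Schwann and ensheathing genes, 2 were nominally higher and 2 nominally lower. Endothelial genes had a median of -0.022, macrophage and microglia genes of -0.0019, Schwann and ensheathing genes of 0.026 and the 415 tested odorant receptor genes of -0.00074. Other markers of main olfactory neurons had a median of 0.15, with 9 of 12 higher and 2 nominally higher. Their summed level was 1056 to 1153 CPM in cKO organs and 773 to 1047 CPM in the controls. Without AP-2εCre+/- replicate 1 that median was 0.12 with 1 nominally higher. Fibroblast and matrix genes were at 0.27 with 1 of 28 nominally higher, and at 0.16 without Smad4 flox/flox replicate 3. Smooth muscle and pericyte genes were at 0.28, and at 0.15 without cKO replicate 1; Mcam, an adhesion molecule of these cells, was at 0.44. Ctsk, the osteoclast protease, was at 0.49. All 13 genes of the mitochondrial genome were lower, at a median of -0.25 and none nominally. That median was -0.10 without cKO replicate 1 and -0.42 without replicate 2. Ribosomal protein genes were at 0.015, but at 0.24 and -0.20 without the same 2 libraries in turn, and proteasome genes were at -0.029. Single members of these lists that lay below every control included the endothelial von Willebrand factor gene Vwf at -0.47 (adjusted p = 0.123) and the odorant receptor gene Olfr648 at -1.10 (adjusted p = 0.15).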

How the data were processed

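Stranded polyA+ libraries of whole VNOs were sequenced by the authors as single reads and quantified with Salmon 0.14.0 against mouse transcripts of GRCm38. The methods name a CDS assembly, while 35.5% of the listed transcript lengths were multiples of 3. The deposited values are an estimated count per transcript, which is not normalized, and a TPM, which the authors' Salmon run scaled to 1000000 per library. The TPM entered only the length-scaled alternative. The authors' own analysis used DESeq2 1.22.2, and its results were not used here.

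Estimated counts were summed per gene with GENCODE annotation on GRCm38 and rounded. Of 116248 transcripts, 176 had no gene, with at most 0.032% of the counts. Depth was 43385516 to 134042284 counts per library. The cKO group (3 libraries) was set against both kinds of control (6 libraries) by edgeR 4.0.16 (R 4.3.3), using TMM, filterByExpr, the quasi-likelihood test and Benjamini-Hochberg adjustment over 18495 genes, with a threshold of 0.05. The p-values are two-sided. Single genes also had an exact permutation test over 84 splits on log2(CPM + 1). CPM are TMM-normalized, and gland transcripts alone held 11.3 to 26.7% of the counts, so levels depend on that scaling. The labels call the libraries biological replicates, and nothing states how many animals went into each.

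The comparison, the 51 gene lists and the genes named were chosen with earlier results of these data known. Genes were named where called, where they were the up to 4 members of a list with the smallest unadjusted p under 0.05 or the 2 most abundant, where they were among the 10 that were highest or lowest in fold change without overlap at an unadjusted p under 0.01 and a mean of at least 1 CPM, or where the study names them. Counts per list, medians and values per library describe the lists, and no list was tested as a set. Some genes the rule names are not reported here. Genes quoted beyond this rule were chosen after their values were seen. DESeq2 1.42.0, other filters, scalings, controls and library sets were alternatives. The main fit was tested on simulated counts. Promoters came from RefSeq tables. Python 3.11.15 served for tables and matplotlib 3.10.9 for figures.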

Additional observations from a re-analysis of the deposited data

Results flagged for a closer look

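In 23 of the 131 list sums and genes examined, 1 of the 6 control libraries stood apart from the other 5: its gap to the nearest value, as a share of the whole range of the 6, was over Dixon's 95% critical value. Chance gives about 1 in 20, and genes of 1 list are not independent. The library was AP-2εCre+/- replicate 1 in 14 cases and Smad4 flox/flox replicate 3 in 4.

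AP-2εCre+/- replicate 1 was the lowest control in the summed markers of mature VSNs (gap 0.818, 1044 CPM against 1280 to 1332), transmitter release (0.676) and synaptic adhesion (0.693), and the highest in sustentacular markers (0.629, 8236 CPM against 4587 to 5942). It was the lowest for the V2R genes Vmn2r4 (0.684) and Vmn2r7 (0.649) and the neuronal genes Dpysl5 (0.644) and Lhx2 (0.698). It was the highest for the secreted proteins Gm5938 (0.640), Mup5 (0.723) and Crisp1 (0.826), for Mcidas (0.626) and for the sustentacular enzymes Cyp2f2 (0.675) and Cyp2a5 (0.637).

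Smad4 flox/flox replicate 3 was the only library with counts of the Y-linked genes Ddx3y (1.000) and Eif2s3y (1.000), and the lowest control for Nrp2 (0.681) and Tgfb1 (0.682). Smad4 flox/flox replicate 1 was the highest for Lcn4 (0.771, 16352 CPM against 8200 to 10067), Lcn3 (0.783) and Dmbt1 (0.662), and replicate 2 for Bpifa1 (0.846). AP-2εCre+/- replicate 3 was the highest for Id3 (0.688).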

How the results depend on the processing

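The 7 genes called became 309 with DESeq2, which shared all 7, 4 with length-scaled counts, 24 against Smad4 flox/flox controls alone (4 of them shared), 7 against heterozygous Cre controls alone (2 shared, Gm9765 and Gm16589), 2 with a covariate for the name series of the libraries, 2 in the letter-number name series alone, 16 with all 18 labelled libraries in 1 fit and 0 with the library of conflicting labels added to the heterozygotes (edgeR; 1942 genes at an unadjusted p under 0.05). Leaving out each library in turn gave 2 to 8 calls: 2 without AP-2εCre+/- replicate 2 or 3, cKO replicate 1 or 3 or Smad4 flox/flox replicate 2, and 3 without Smad4 flox/flox replicate 3. With the replicate number as a block 2 genes were called, but the numbers do not pair the samples: deviations of libraries with the same number correlated at -0.0886 on average over 9 pairs (-0.33 to 0.21), against 0.0451 for different numbers. The numbers thus gave no grouping. Libraries of the same name series correlated at 0.0926 on average over 15 pairs (-0.33 to 0.31). Those of different series correlated at -0.115 over 12 pairs (-0.29 to 0.18), so the ranges overlapped. With that series as a covariate no gene was called higher.

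Changes of sign concerned 6 genes near 0, and the cause was not tested. Against heterozygous Cre controls alone the log2 fold change was 0.020 for Smad4, 0.59 for Tfap2e and 0.15 for Gnao1. Against Smad4 flox/flox alone it was 0.068 for Id1 and 0.027 for Id3. In the letter-number series alone it was 0.066 for Tfap2e, 0.0027 for Foxj1, 0.022 for Gnao1 and 0.015 for Id1. For Tfap2e it was 0.066 with all 18 libraries and 0.067 with the conflicting library added. Among the fits that leave out 1 library, Smad4 ranged from -0.25 to 0.17, Tfap2e from -0.16 to 0.12, Gnao1 from -0.14 to 0.016, Id1 from -0.19 to 0.045 and Id3 from -0.17 to 0.085. The gland, motile cilia, apical, immature neuron and cell cycle medians kept their direction under all alternatives. Of 51 list medians, 20 moved by more than the spread within groups under at least 1 alternative. That spread was the SD of the list level within each of the 3 groups, cKO among them, pooled over the groups. The smallest lists and those at a few CPM are limited by counting, and 3 libraries against 6 allow no permutation p under 0.012.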

Other observations

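Genes of white blood cells, bone and vessels that surround the organ held values of their own. Among 16 bone genes 15 were higher in the cKO organs, with a median log2 fold change of 0.19, and 3 were nominally higher and 1 nominally lower. Without cKO replicate 3 the median was 0.10 with 1 nominally higher. Mmp9, a protease of neutrophils and osteoclasts, had 264, 237 and 313 CPM in cKO organs, 157, 226 and 200.3 CPM in flox/flox controls and 173, 212 and 247 CPM in AP-2εCre+/- controls, so that the groups overlapped. Ctsk had 424, 383 and 444 CPM against 256 to 351 CPM in the controls, without overlap (log2 fold change 0.49, adjusted p = 0.269 by edgeR).

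Immediate early genes had a median of 0.21 over 28 tested genes, with 4 nominally higher, of which Jun was at 0.49 and Atf3 at 0.93. Without cKO replicate 1 the median was 0.06. Interferon response genes were at 0.05 over 32 and apoptosis genes at 0.01 over 29, with none nominally higher or lower in either list. Markers of solitary chemosensory cells were at 0.07 over 11 tested genes, also with none.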
